A study of Mus musculus with 4 samples.

Results

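Regulators of G protein signalling (RGS proteins) are the brakes of G protein-coupled receptors. A receptor that binds a chemokine or a lipid loads the alpha subunit of its G protein with GTP, and an RGS protein speeds the hydrolysis of that GTP, which ends the signal. T cells find follicles, stay in lymph nodes and leave them through such receptors, and RGS proteins of the R4 subfamily are known to limit their responses to chemokines and to sphingosine 1-phosphate. The genes described here are Rgs1, Rgs2, Rgs3, Rgs10, Rgs14, Rgs16, Rgs18 and Rgs19. They were taken by name, with no threshold on their values, through every probe whose platform annotation gives exactly 1 of these symbols. This gave 9 probes for the 8 genes, 2 of them for Rgs2, among 22180 genes measured by a probe of this kind.

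The cells were CD4 regulatory T cells marked by a YFP reporter driven from Foxp3, taken from mice immunized with NP-OVA in CFA 7 days earlier. Follicular regulatory cells (TFR) were sorted as PD1+CXCR5+ cells and the other regulatory cells (non-TFR) as CXCR5- cells, with no PD1 requirement given for the second gate. Control mice were FoxP3YFP-Cre and knockout mice were Prdm1fl/flFoxP3YFP-Cre, so that Cre is expressed from Foxp3 in both genotypes and only the knockout carries floxed alleles of Prdm1, the gene of the repressor Blimp-1. Each of the 4 groups (control TFR, knockout TFR, control non-TFR, knockout non-TFR) was 1 Affymetrix Mouse Gene 2.0 ST array, while age, sex and the number of mice behind an array are not stated in the labels used here.

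Levels below are log2 values after quantile normalization of the 4 arrays, and a difference is the subtraction of 1 array from another. With 1 array per group there is no spread between replicates, no test and no p-value, and precision is limited by the number of arrays. A gene was called expressed when its mean level over the 4 arrays exceeded 5.91, the median of all genes; 11090 genes did. It was called apart when 2 arrays differed at least 2-fold, a log2 difference of 1. Fold values are given only where both levels were above 5.91, because no detection calls show which dim values were above background. Levels of different genes come from different probes and are not compared with each other.

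The sorted cells carried the marks of their gates. All 6 regulatory T cell markers were expressed, with a mean level of 11.5 to 11.7 per array, and the 4 follicular markers averaged 9.54 and 10.3 in control and knockout TFR cells against 8.05 and 8.86 in control and knockout non-TFR cells. Members of the first list did not all move together. Il2ra was 0.49 and 1.23 lower and Ikzf2 0.70 and 0.37 higher in TFR than non-TFR cells of control and knockout mice, and Foxp3 was at 12.36 and 11.87 in control and knockout TFR cells against 12.45 and 12.42 in non-TFR cells. Il2ra and Foxp3 were thus lowest in knockout TFR cells, as were Rgs1, the brighter Rgs2 probe, Rgs14, Rgs19 and Rgs16 (Rgs16 not in the deposited values). How many of all expressed genes were lowest in that array was not counted. Prdm1 was at 8.21 and 7.32 in control and knockout TFR cells and at 7.80 and 7.59 in the non-TFR arrays. The sources used here do not say which exons the probe covers, and a probe outside the deleted part would not check the deletion. Markers of other cells were mostly dim. Above the limit were 2 of 7 measured B cell markers (Cd22 and Cd79b), 1 of 4 plasma cell markers, 1 of 8 myeloid markers, none of 4 dendritic cell markers, 3 of 6 platelet markers and 2 of 5 CD8 T or NK cell markers. Pf4 and Ppbp of platelets, Lyz2 of myeloid cells and Cd79a and Ms4a1 of B cells were below it. Over the 4 arrays the mean levels of these lists ran from 5.49 to 6.04 for B cells, 5.94 to 6.26 for plasma cells, 5.29 to 5.74 for myeloid cells, 4.93 to 5.12 for dendritic cells, 5.51 to 5.60 for platelets and 6.19 to 6.39 for CD8 T or NK cells. Cd22 was 2.28 and 2.22 higher in TFR than non-TFR cells of control and knockout mice, while Cd79b differed by 0.33 and -0.16 and Cd79a by -0.10 and -0.27. Cd68, the myeloid marker above the limit, was 0.50 and 1.58 higher. The part of these markers in the RGS values was not tested.

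None of the 7 expressed RGS genes was 2-fold apart in any of the 4 comparisons. Among all expressed genes, 5.49% were 2-fold apart between TFR and non-TFR cells of control mice, 4.4% in knockout mice, 0.676% between genotypes in TFR cells and 0.902% between genotypes in non-TFR cells. Calls were therefore rare among all genes too, and a count of 0 among 7 is close to that background. Over all 4 arrays, 9.33% of expressed genes had a range of 2-fold or more, and again none of the RGS genes did. Within that limit the genes did not behave alike. Rgs1, Rgs2, Rgs14 and Rgs19 had lower TFR than non-TFR values in both genotypes. Rgs1, Rgs14, Rgs16, Rgs19 and the brighter Rgs2 probe were lowest in knockout TFR cells. The share of all expressed genes lowest in that array was not counted, so that this tally has no background beside it. For Rgs16 the next array was at 10.10 against 10.09, and for Rgs19 at 8.63 against 8.56. In the deposited values Rgs16 was lowest in control non-TFR cells, at 10.05 against 10.13 in knockout TFR cells. The dimmer Rgs2 probe was lowest in control TFR cells. Rgs14, Rgs19 and the brighter Rgs2 probe were lower in the knockout in both populations, and Rgs10 and Rgs16 were nearly level.

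**Figure D1:**
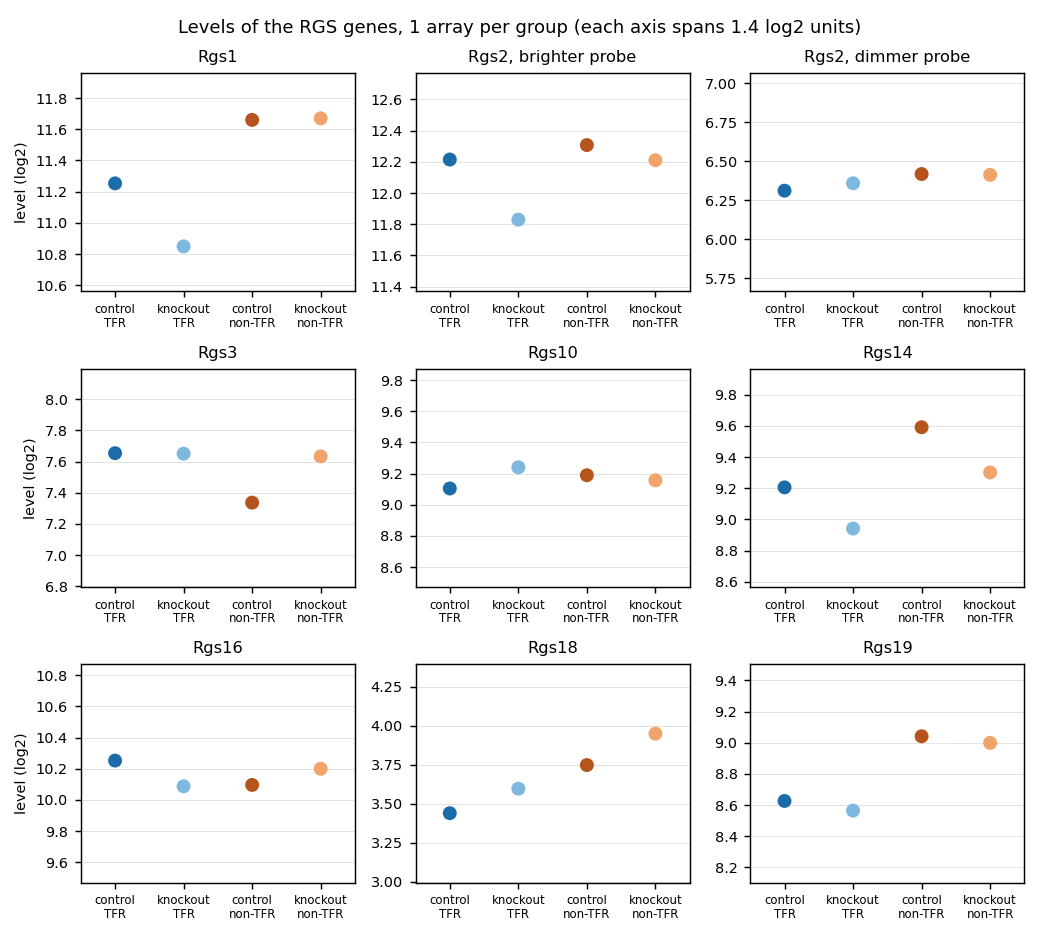
Level (log2, after quantile normalization) of each RGS probe in the 4 arrays, 1 point per array, on axes of equal span but different position, so that only distances within a panel can be compared. Rgs1 spans 0.82 between knockout TFR and knockout non-TFR cells, Rgs10 spans 0.14, and the dimmer Rgs2 probe does not show the low knockout TFR value of the brighter one.

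Several of these genes lie side by side in the mouse genome. In the RefSeq gene table, Rgs2, Rgs13, Rgs1, Rgs21 and Rgs18 follow each other on chromosome 1 with no other protein-coding gene between them, and Rgs8 and Rgs16 are neighbours elsewhere on that chromosome. Within the first row of genes Rgs2 and Rgs1 were expressed here, while Rgs13, Rgs21 and Rgs18 were below the limit. Of the second pair, Rgs16 was expressed and Rgs8, with a mean level of 5.73, was just below it. Rgs19 lies on chromosome 2, Rgs3 on 4, Rgs10 on 7 and Rgs14 on 13.

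Promoter windows of 300 bases (250 before and 50 after a transcript start, RefSeq, build GRCm38.p6) were listed for 5 of the 8 genes, in 8 windows. They were searched on both strands for GTGAAAG, the core of the sequence that Blimp-1 binds and one that overlaps interferon response elements, for TGANTCA, which AP-1 binds, and for TGACG, part of the cyclic AMP response element. Only Rgs2 held a match, to TGACG, on 1 strand 185 to 181 bases and on the other 67 to 63 bases before its start. Among all 32851 windows 4.24% held GTGAAAG, 7.81% TGANTCA and 20.8% TGACG, so that few or no matches among 5 genes are usual. The 250 bases before the starts of Rgs2 (chr1:144004150-144004399, minus strand) and Rgs16 (chr1:153740103-153740352, plus strand) are shown as the window with matches and one without, both from expressed genes of chromosome 1, with the TGACG matches in capitals. A match is a description of letters and not a bound site.
Rgs2: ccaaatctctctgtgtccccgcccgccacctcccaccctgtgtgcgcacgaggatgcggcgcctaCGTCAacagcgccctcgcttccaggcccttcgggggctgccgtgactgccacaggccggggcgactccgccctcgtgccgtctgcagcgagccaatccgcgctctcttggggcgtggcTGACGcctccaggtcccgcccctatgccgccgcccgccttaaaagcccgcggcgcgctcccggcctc
Rgs16: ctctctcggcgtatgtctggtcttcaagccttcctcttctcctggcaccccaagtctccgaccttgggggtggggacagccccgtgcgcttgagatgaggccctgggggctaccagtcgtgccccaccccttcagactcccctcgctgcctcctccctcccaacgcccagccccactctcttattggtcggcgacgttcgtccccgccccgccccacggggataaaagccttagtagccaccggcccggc

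Rgs1 varied most among the 8 genes. It encodes an R4 protein that is known to weaken the migration of lymphocytes towards chemokines. Its level (probe 17227780) was 11.25 in control and 10.85 in knockout TFR cells, against 11.66 and 11.67 in the matching non-TFR cells. Both TFR arrays thus lay below both non-TFR arrays, and the knockout TFR array was the lowest of all. In control mice the TFR value was lower by 0.41 (1.33-fold), a difference with 12.2% of expressed genes below it. In knockout mice it was lower by 0.82 (1.77-fold), with 2.52% of expressed genes below it. This was the one value of the 7 expressed genes past 1.5-fold in any comparison. Among expressed genes 16.1% were 1.5-fold apart between populations in control mice, 14.7% in knockout mice, 3.72% between genotypes in TFR cells and 4.78% in non-TFR cells.

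Between genotypes, Rgs1 was 0.40 lower in the knockout within TFR cells (1.32-fold), with 4.47% of expressed genes below it. That value and the population difference in knockout mice contain the same knockout TFR array and are not separate results. Within non-TFR cells the arrays differed by 0.01, a value whose sign turned under 3 of 5 other settings. Of these settings the mean of all probes could change Rgs2 alone among the RGS genes. The population difference was 0.41 larger in size in knockout than in control mice, and this difference of differences has no test. Genes of like pattern were to be named for RGS genes with a range of 2-fold, and none had one. For Rgs1 the search was made all the same, after its values were seen. Over the 4 arrays, with each gene centred on its own mean, the nearest expressed genes by root mean square distance were Frmd6 at 0.023, Smad5 at 0.026 and the transcription factor gene Klf6 at 0.026 on the log2 scale.

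Rgs2, another R4 gene, encodes a protein known for its preference for the Gq class of alpha subunits. Its brighter probe (17227764) read 12.21 in control and 11.83 in knockout TFR cells, against 12.31 and 12.21 in the matching non-TFR cells. The knockout TFR array stood below the other arrays, which lay within 0.1 of each other. Knockout TFR cells were 0.39 below control TFR cells (1.31-fold) and 0.38 below knockout non-TFR cells (1.30-fold), with 4.96% and 13.8% of expressed genes lower. The difference between populations was -0.09 in control mice, and that between genotypes was -0.10 in non-TFR cells.

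The second Rgs2 probe (17548932) did not repeat this. Its levels were 6.31 in control and 6.36 in knockout TFR cells, against 6.42 and 6.41 in the matching non-TFR cells. They spanned 0.11 in all, and knockout TFR cells were 0.05 above control TFR cells. The probe read close to the expression limit, where differences can be compressed. With both probes averaged, the knockout TFR value of Rgs2 was 0.17 below the control, so that the lower Rgs2 in knockout TFR cells rests on 1 probe.

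Rgs16, an R4 gene that activated T cells are known to switch on, was at 10.25 in control and 10.09 in knockout TFR cells, against 10.10 and 10.20 in the matching non-TFR cells (probe 17218321). The arrays spanned 0.16, and 9.10% of expressed genes had a smaller range. The difference between TFR and non-TFR cells was 0.16 in control and -0.11 in knockout mice, and 0.28 and 0.001 in the deposited values. The genotype differences were -0.16 in TFR and 0.10 in non-TFR cells.

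Rgs3 encodes an R4 protein with several isoforms of different length. Its levels were 7.65 in control and 7.65 in knockout TFR cells, against 7.34 and 7.63 in the matching non-TFR cells (probe 17414600). The control non-TFR array was low and the other arrays lay together. TFR cells were therefore 0.32 above non-TFR cells in control mice (1.25-fold), and the knockout was 0.30 above the control in non-TFR cells (1.23-fold). Both values contain the same low array and are not separate results. In knockout mice the population difference was 0.02, below 0 under 1 of 5 other settings, and within TFR cells the genotypes differed by less than 0.01, with the sign turned under 2 of 5.

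Rgs18, an R4 gene known from platelets and myeloid cells, was the one gene of the 8 below the limit. It read 3.44 in control and 3.60 in knockout TFR cells, against 3.75 and 3.95 in the matching non-TFR cells (probe 17227797). No level can be stated as expression at such values, and no fold is given. Of 6 measured platelet markers 3 were above the limit (Gp9 at 6.69 to 7.30, Itga2b at 5.99 to 6.31 and Treml1 at 6.03 to 6.20) and 3 below it, Pf4 and Ppbp among them. Of 8 myeloid markers 7 were below it.

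Rgs19 is the RZ gene of the set, and its protein, also called GAIP, acts on alpha subunits of the Gi class. Its levels were 8.63 in control and 8.56 in knockout TFR cells, against 9.04 and 9.0 in the matching non-TFR cells (probe 17395933). The TFR arrays lay together, and so did the non-TFR arrays above them. TFR cells were lower by 0.42 in control mice (1.33-fold) and by 0.43 in knockout mice (1.35-fold), with 11.8% and 11.3% of expressed genes below. In the deposited values both were -0.29. These comparisons share no array. The genotype differences were -0.06 in TFR and -0.04 in non-TFR cells.

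Rgs14 belongs to the R12 subfamily and encodes a protein that in addition to its RGS domain has sites for Ras-like proteins and for inactive Gi alpha subunits. It read 9.21 in control and 8.94 in knockout TFR cells, against 9.59 and 9.30 in the matching non-TFR cells (probe 17287650). Both factors separated the arrays: TFR lay below non-TFR in each genotype, and knockout below control in each population. The population difference was -0.39 in control mice (1.31-fold lower) and -0.36 in knockout mice (1.28-fold lower). In the deposited values it was -0.26 and -0.22. The genotype difference was -0.26 in TFR cells (1.20-fold lower) and -0.29 in non-TFR cells (1.22-fold lower), with 10.3% and 7.18% of expressed genes below. The 2 population differences share no array with each other, nor do the 2 genotype differences, but each population difference shares arrays with each genotype difference.

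Rgs10, the other R12 gene, encodes a small protein that is little more than an RGS domain and acts on Gi alpha subunits. It was at 9.10 in control and 9.24 in knockout TFR cells, against 9.19 and 9.16 in the matching non-TFR cells (probe 17496887). The arrays spanned 0.14, and 5.69% of expressed genes had a smaller range. The population difference was -0.08 in control mice and 0.08 in knockout mice. In the deposited values it was 0.04 and 0.23, above 0 in both. The genotype difference was 0.14 in TFR and -0.03 in non-TFR cells.

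As a set, 5 of the 7 expressed genes had lower values in TFR than non-TFR cells in control mice and 5 in knockout mice, where 47.5% and 48.4% of expressed genes were lower. The median difference of the 7 was -0.09 in control and -0.36 in knockout mice, beside 0.02 and 0.01 over all expressed genes. Rgs1, Rgs2, Rgs14 and Rgs19, 4 of the 7, were lower in both genotypes, as were 36.1% of expressed genes. Between genotypes the median was -0.16 in TFR cells, where 6 of 7 were lower in the knockout against 46.1% of expressed genes. It was -0.03 in non-TFR cells, where 4 of 7 were lower against 44.2%. The medians over all expressed genes were 0.02 and 0.03. The RGS medians of -0.36 in knockout mice and -0.16 in TFR cells contain the same knockout TFR array and are not separate results. Rgs2, Rgs14 and Rgs19, 3 of 7, were lower in the knockout in both populations, as were 25% of expressed genes. These counts include differences near 0 that turn with the scaling. Over 5 other settings the genes lower in TFR cells numbered 4 to 5 in control and 4 to 6 in knockout mice, and those lower in the knockout 5 to 6 in TFR and 4 to 5 in non-TFR cells. The count lower in TFR cells of both genotypes was 4 in each setting, and that lower in the knockout in both populations was 3 or 4. In the deposited values the median of all expressed genes was 0.13 and 0.14 in the population comparisons, and the RGS medians there were -0.09 and -0.22.

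**Figure D2:**
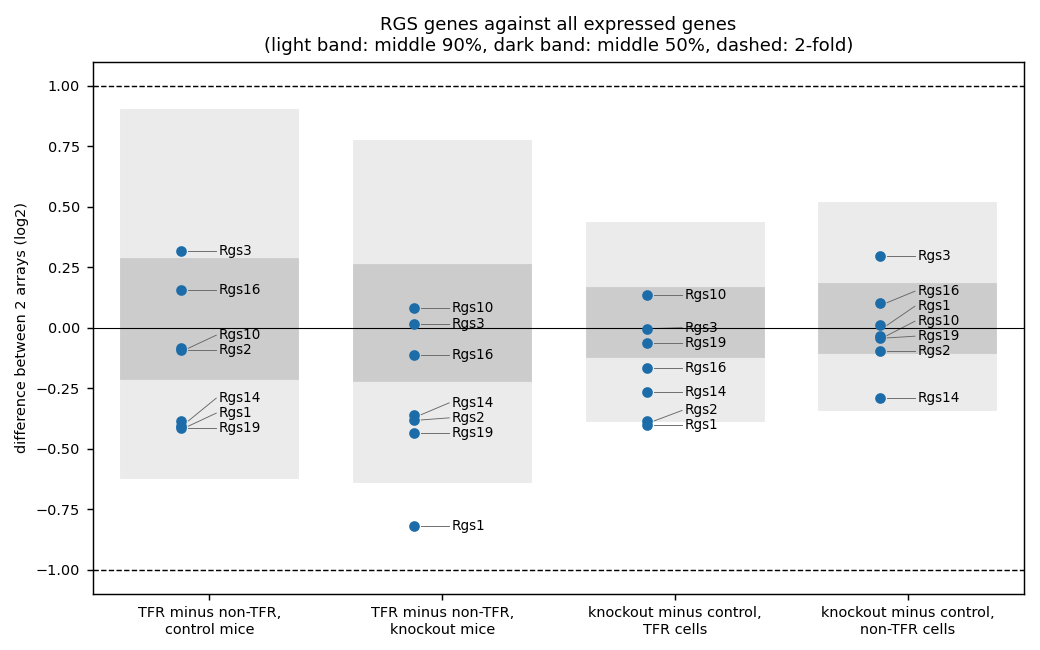
Differences between arrays (log2) of the 7 expressed RGS genes in the 4 comparisons, as points, over the middle 90% (light) and middle 50% (dark) of the 11090 expressed genes. All points lie inside the 2-fold lines, Rgs1 at -0.82 in knockout mice lies below the light band, which begins at -0.64, and Rgs1 and Rgs2 at -0.40 and -0.39 between genotypes in TFR cells lie at the lower edge of a band that begins at -0.38. The Rgs1 and Rgs2 values named here all contain the knockout TFR array.

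The rest of the RGS family was mostly dim in these cells. Of 13 other family genes, all measured, Rgs9, Rgs11 and Rgs12 were expressed. The other 10 had means below the limit, among them Rgs13, known from germinal centre B cells, at 3.61 to 3.98. Rgs9 and Rgs11 belong to the R7 subfamily, whose proteins work in a complex with the beta subunit Gnb5 and are best known from neurons and the retina. Both were 2-fold apart between the populations of control mice, where 5.49% of expressed genes were.

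Rgs9 read 9.47 in control and 9.05 in knockout TFR cells, against 8.02 and 8.60 in the matching non-TFR cells. TFR arrays lay above non-TFR arrays in both genotypes, by 1.45 in control mice (2.74-fold) and by 0.45 in knockout mice (1.37-fold). The knockout was 0.42 below the control in TFR cells and 0.58 above it in non-TFR cells. The 1.45 and the 0.58 contain the same control non-TFR array and are not separate results. Knockout minus control, the population differences were -0.999 apart, which was not tested.

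Rgs11 went the other way. Its levels were 5.43 in control and 5.47 in knockout TFR cells, against 6.65 and 6.52 in the matching non-TFR cells. TFR values were below the expression limit, and the differences were -1.22 in control and -1.05 in knockout mice, the second of them -0.94 in the deposited values. Rgs12, a large R12 gene related to Rgs14, was at 6.72, 6.76, 6.05 and 6.24 in control TFR, knockout TFR, control non-TFR and knockout non-TFR cells, and TFR cells were 0.67 and 0.52 higher in control and knockout mice. Gnb5 was 0.48 and 0.25 higher in TFR cells. The membrane anchors of R7 proteins, Rgs7bp and Rgs9bp, were below the limit.

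**Figure D3:**
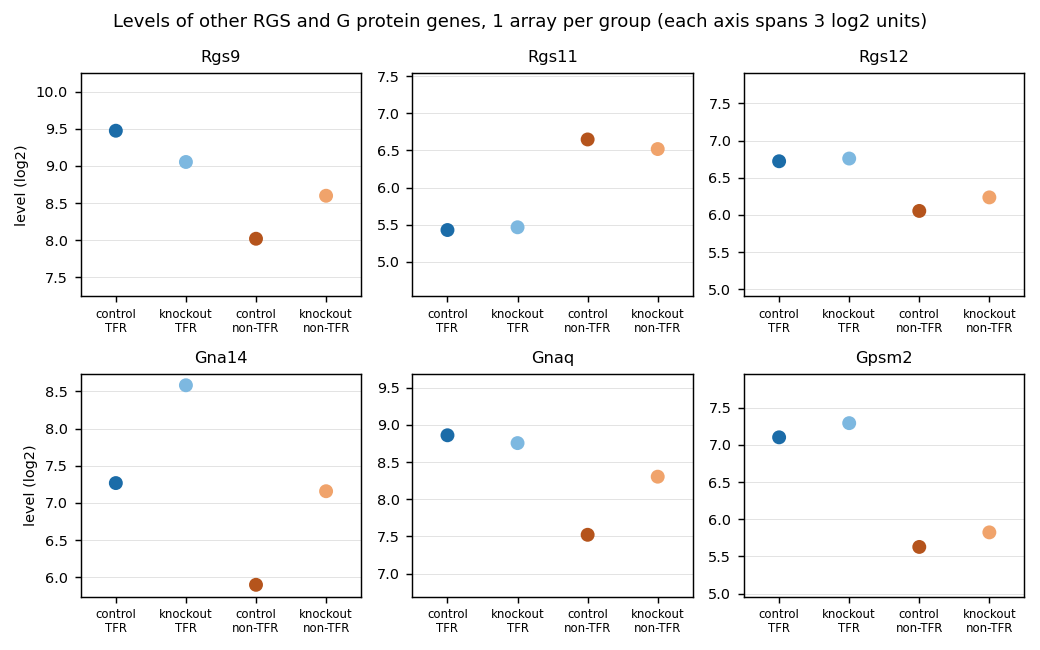
Level (log2, after quantile normalization) of 3 further RGS genes and 3 other genes of the pathway in the 4 arrays, 1 point per array, on axes of equal span. Rgs9 is above and Rgs11 below its non-TFR level in TFR cells, and Gna14 differs with both population and genotype. Every gene shown except Rgs11 is lowest in control non-TFR cells.

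RGS proteins act on G alpha subunits, and 10 of 13 of these were expressed. Of the Gi class expressed here, Gnai2 was nearly level, between 11.15 and 11.27. Gnai3 lay between 9.29 and 9.57 and was 0.28 higher in knockout than control TFR cells. Of 4 expressed genes of the Gq class, Gna11 lay between 7.86 and 8.12 and Gna15 between 7.78 and 8.27, while the other two had wider ranges. Gna14 was at 7.27 in control and 8.58 in knockout TFR cells, against 5.90 and 7.16 in the matching non-TFR cells. It was 1.37 and 1.43 higher in TFR cells of control and knockout mice, and 1.32 (2.49-fold) and 1.26 higher in the knockout in TFR and non-TFR cells. Its control non-TFR level was just below the limit, so that the size of both differences taken from that array is uncertain. Gnaq was at 8.86, 8.76, 7.52 and 8.30 in the same order of arrays, which is 1.34 higher in TFR cells of control mice (2.53-fold) and 0.45 higher in those of knockout mice. In all, 2 of 10 alpha subunit genes were 2-fold higher in TFR cells of control mice, and 1 of 10 in each other comparison, beside 4.13%, 3.03%, 0.442% and 0.775% of expressed genes that were 2-fold higher in control mice, knockout mice, TFR cells and non-TFR cells.

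No expressed gene among 9 beta and gamma subunits and 5 receptor kinases and arrestins was 2-fold apart in any comparison, which is close to the 5.49%, 4.4%, 0.676% and 0.902% of expressed genes that were. Arrb1, an arrestin that uncouples receptors from G proteins, was 0.32 and 0.58 lower in TFR cells of control and knockout mice. Gng12 was 0.63 and 0.60 lower in the knockout in TFR and non-TFR cells. Among 11 other regulators of G proteins, Gpsm2, which binds inactive Gi alpha subunits and orients the mitotic spindle, was 1.47 higher in TFR cells of both genotypes. Its non-TFR levels of 5.63 and 5.82 were below the limit. Ric8b, a chaperone of alpha subunits, was 0.52 and 0.67 lower in TFR cells.

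Among the chemoattractant and lipid receptors, Cxcr5 set the gate and is left out of the counts. Of the other 22 expressed genes, 5 were 2-fold higher and 1 was 2-fold lower in TFR cells of control mice, and none was higher and 3 were lower in knockout mice. Of all expressed genes 4.13% and 3.03% were 2-fold higher and 1.36% and 1.37% 2-fold lower in TFR cells of control and knockout mice. In the knockout, 0.442% and 0.775% were 2-fold higher and 0.234% and 0.126% 2-fold lower within TFR and non-TFR cells. Cxcr3 was 1.74 and 0.92 higher, S1pr1 was 1.57 and 1.15 lower, Ccr7 0.73 and 1.69 lower and Gpr83 0.69 and 1.18 lower in TFR cells of control and knockout mice. In knockout mice Ccr4, Cxcr3 and Cxcr6 were 0.92, 0.92 and 0.96 higher, and 1.07, 1.05 and 1.06 in the deposited values, where they pass 2-fold. The knockout non-TFR level of Cxcr6, 5.60, was below the limit. Cxcr4, the receptor of CXCL12, lay between 11.92 and 12.30. Between genotypes 1 gene was 2-fold lower in TFR cells (Ccr7, -1.34), and in non-TFR cells 3 were 2-fold higher, Ccr6 (1.31), Ptger2 (1.15) and Cxcr3 (1.12). Ccr6, Ptger2 and Cxcr3 were also 1.27, 1.20 and 1.74 higher in TFR cells of control mice. Both sets of values contain the control non-TFR array and are not separate results. The Ccr7 value shares the knockout TFR array with the Ccr7 population difference in knockout mice.

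Among 15 expressed effectors of G proteins, 1 was 2-fold higher and 3 were 2-fold lower in TFR cells in each genotype, beside the shares of all expressed genes just given. Plcb4, a phospholipase that Gq subunits activate, was 1.79 higher in control (3.46-fold) and 1.33 higher in knockout TFR cells (2.51-fold). Rasgrp2, an activator of Rap1, was 1.38 and 1.44 lower (2.60-fold and 2.72-fold). Pik3r5, the regulatory subunit through which beta and gamma subunits reach a PI3 kinase, was 1.13 and 1.46 lower (2.19-fold and 2.75-fold). Adcy6 was 2.22 and 1.5 lower, with TFR values below the limit. Between genotypes none was 2-fold apart in TFR cells, where Rasgrp2 was 0.98 lower in the knockout and 1.01 lower under another scaling. In non-TFR cells Plcb4 was 1.00 higher, a value under 1 in 2 of 5 scalings, and Adcy6 1.03 lower. For Plcb4 and Adcy6 this value and the population difference of control mice contain the same control non-TFR array and are not separate results.

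**Figure D4:**
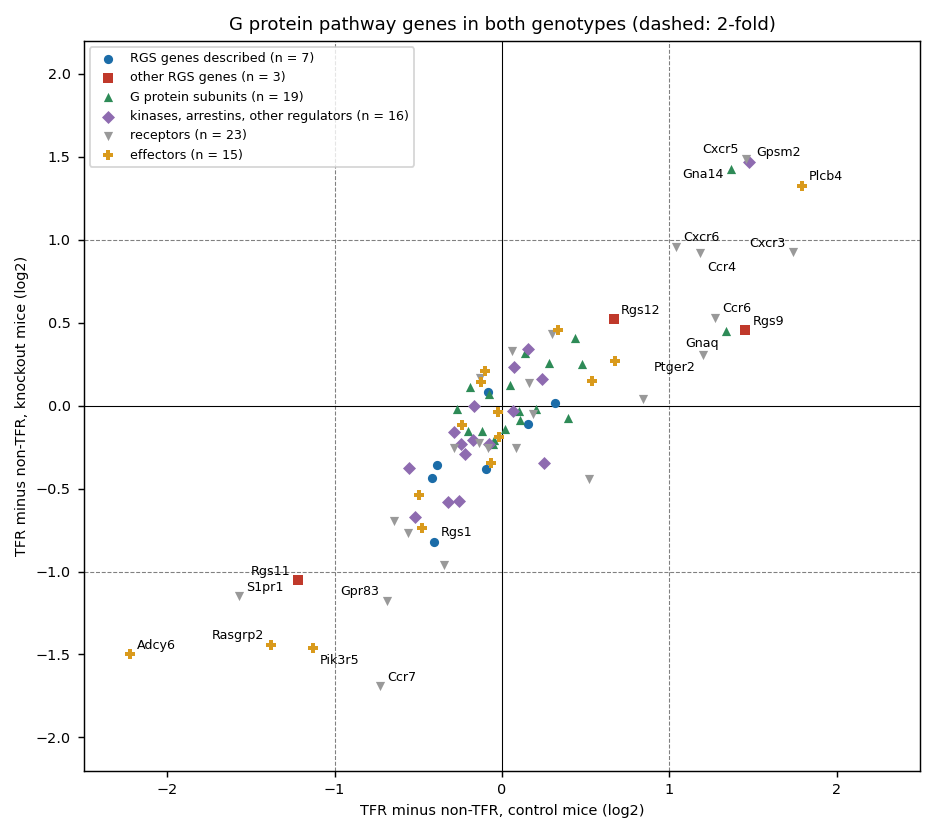
TFR minus non-TFR difference (log2) in control mice (horizontal) against knockout mice (vertical) for the expressed genes of the G protein pathway, 1 point per gene, with the 2-fold lines dashed. The 7 RGS genes described first (blue) lie between -0.82 and 0.32 near the centre. Rgs9, Rgs11, Plcb4 and other genes, among them Gna14, Gnaq, Gpsm2, Cxcr3, S1pr1 and Adcy6, lie past the 2-fold lines in control mice.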

How the data were processed

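Total RNA of 4 sorted populations was hybridized to 1 array each. The authors deposited 1 log2 value per probe set (called a probe here) and array for 41345 probes; the log2 scale was read from the values. The submitters' processing notes name MAS5, with no version or role; the sources used here do not give background correction, summarization, scaling or genome build. Deposited array medians spanned 0.105, so the values were quantile normalized over all probes (limma 3.58.1, R 4.3.3), which makes the distributions equal and would also remove a real shift shared by most genes. Probes were named from the platform annotation (23521 with 1 gene, 1814 with several, 16010 not named there), and only the first kind was used. For the 1082 genes with several probes the brightest stood for the gene in counts and medians. Differences, counts at 2-fold and ranks were computed in Python 3.11.15 without a test, and the counting was tested on simulated data.

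Genes named are the RGS genes, expressed genes of the rest of the family, up to 3 expressed genes of each of the other pathway lists with the largest differences in a comparison, target and gate genes, and genes nearest in pattern. Others (Gnai2, Gnai3, Gna11, Gna15, Gnb5, Rgs7bp, Rgs9bp, Cxcr4, Ccr4, Cxcr6, markers) are given for their role or for passing 2-fold under another scaling, chosen after values were seen. The RGS genes and the lists were chosen with earlier results of these data known. Alternatives were the deposited values, cyclic loess, centring on the 75th percentile, quantile normalization over probes with 1 gene, the mean of all probes of a gene, other limits on dim genes and, added after seeing the data, a limit of 1.5-fold.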

Additional observations from a re-analysis of the deposited data

Results flagged for a closer look

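Differences of expressed RGS genes that had opposite signs in the groups compared are listed here, each from 1 array per group and with the difference between groups not tested. Rgs9 was the largest: knockout minus control was -0.42 in TFR and 0.58 in non-TFR cells, a gap of -0.999. For Rgs1 these values were -0.40 and 0.01, a gap of -0.41, and the sign of the second turned under 3 of 5 other settings. For Rgs3 they were -0.003 and 0.30, a gap of -0.30, with the first near 0. For Rgs16 they were -0.16 and 0.10, a gap of -0.27. Its population differences, 0.16 in control and -0.11 in knockout mice, were opposite too, but not in the deposited values. For Rgs10 they were 0.14 and -0.03, a gap of 0.17. Its population differences, -0.08 and 0.08, were opposite too, but not in the deposited values. For Rgs11 they were 0.04 and -0.13, a gap of 0.17, but the first was taken between TFR levels below the expression limit (5.43 and 5.47).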

How the results depend on the processing

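The count of 0 of the 7 expressed RGS genes (Rgs9, Rgs11 and Rgs12 not among them) at least 2-fold apart held in all 4 comparisons under 7 other settings; at 1.5-fold, added after seeing the data, it became 1 (Rgs1) in the population comparison of knockout mice and stayed 0 in the other 3. The largest difference of these 7 genes under any setting was 0.88. The RGS median between populations of control mice, -0.09, was -0.20 without a limit on dim genes (8 genes) and -0.24 with the limit at the 75th percentile (6 genes), in both cases over another number of genes. That of knockout mice, -0.36, was -0.22 in the deposited values, where all genes shift, and -0.22 with the mean of all probes, where Rgs2 takes in its dimmer probe. The other medians moved by less than 0.1. Of 28 pairs of an expressed RGS gene and a comparison, 23 kept their sign under the 5 other settings and 5 did not: Rgs10 in control and Rgs3 and Rgs16 in knockout mice between populations, Rgs3 in TFR cells and Rgs1 in non-TFR cells between genotypes. The mean of all probes, 1 of the 5 settings, could turn no sign except for Rgs2, because the other genes have 1 probe each. No paired analysis was possible because each group holds 1 array and the labels carry no replicate numbers. No array could be left out for the same reason. The array signal over background is unknown without detection calls, which limits Rgs18, Rgs11 and the dimmer Rgs2 probe.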
